A study of Mus musculus with 4 samples.

Results

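Mitochondrial ribosomal protein genes were taken as the genes of the deposited expression table whose symbol is Mrpl or Mrps followed by a number and at most 1 letter. The rule found 76 of the 23309 genes listed, 47 named for the large subunit and 29 named for the small subunit. All 76 had a mean level of at least 5 FPKM over the genotypes, so no member was lost to the filter of 1 FPKM used for the rest of the table. FPKM is a fragment count scaled for transcript length and sequencing depth, so levels can be set side by side between genes. The cells were embryonic stem cells from 129/Ola mice at passages 10 to 20, grown on gelatin with serum and leukemia inhibitory factor. They were either wild type or mutant on both alleles of Chd2, a chromatin remodeler, and the labels name no other allele or agent. The labels give 2 libraries of total RNA per genotype, marked lot 1 and lot 2, and do not say whether the lots were separate cultures or the mutant line a single clone. The table holds 1 FPKM value per genotype, so the values below carry no standard deviation, and significance is that of the q-value in the authors' deposited table, whose spread may be technical.

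The mitochondrial ribosome translates the few proteins that mitochondrial DNA encodes, which are core subunits of the respiratory chain and ATP synthase. Its ribosomal RNAs come from mitochondrial DNA, while every one of its proteins is encoded in the nucleus, made in the cytosol and imported. The small subunit reads the messenger RNA, and the large subunit joins amino acids and threads the product into the inner membrane. Part of the proteins descend from bacterial ribosomal proteins, and the others were added in mitochondria.

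Chd2 was at 10.2 FPKM in wild-type cells and 5.69 FPKM in mutant cells, with a log2 fold change of -0.84 and a q-value of 0.0103 in the authors' deposited table. The defining embryonic stem cell genes Pou5f1, Nanog, Sox2, Zfp42 and Esrrb were all present, from 87.7 FPKM upward in wild type. All 5 were higher in the mutant and none was called, with a summed level of 1790 FPKM in wild type against 1960 FPKM, Nanog at 114 against 150 FPKM and Sox2 at 178 against 222 FPKM. The part of this shift in the levels of the members was not tested. Of the primitive endoderm and trophoblast markers examined, 5 and 4 genes, none reached a mean of 1 FPKM, and Thy1 was the only one of 5 fibroblast markers that did. Of 4 neural markers 2 did, Tubb3 at 50.7 and 49.1 FPKM and Pax6 at 1.68 and 2.42 FPKM. The summed FPKM of all genes was 806390 with wild type and 809413 with mutation. Library depth is unknown, and in bulk RNA fewer cells of a type and less RNA per cell cannot be told apart.

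Promoter sequences were found for 67 of the 76 genes in the RefSeq table of build GRCm38.p6, as windows of 300 bases around the annotated start. The authors mapped to another build, mm9, so these windows describe the reference genome and not the deposited values. The windows shown are those of Mrps6 (chr16:92058086-92058385, + strand) and Mrps31 (chr8:22411090-22411389, + strand), which had the lowest changes among members with a single window. Mrpl46 (chr7:78783040-78783339, - strand) and Mrps11 (chr7:78782881-78783180, + strand) are shown because a large and a small subunit gene start back to back there, and their windows share 141 bases. Mrpl49 (chr19:6057706-6058005, - strand) had the highest change among members with a single window, and Mrps21 (chr3:95871465-95871764, - strand) the highest level. Each is written 5′ to 3′ on the strand of its gene. Capitals mark matches, on either strand, to the letters GCGCNTGCGC of nuclear respiratory factor NRF1, CCGGAAG of the ETS family, which includes GABPA, and AAGATGG of YY1, 3 regulators known for genes of mitochondrial function.
Mrps6: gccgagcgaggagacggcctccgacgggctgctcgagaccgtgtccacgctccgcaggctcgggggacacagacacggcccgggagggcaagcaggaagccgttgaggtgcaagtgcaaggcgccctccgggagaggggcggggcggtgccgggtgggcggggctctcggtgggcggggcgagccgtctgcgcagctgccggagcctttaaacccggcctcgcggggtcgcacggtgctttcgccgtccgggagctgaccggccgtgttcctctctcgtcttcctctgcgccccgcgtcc
Mrps31: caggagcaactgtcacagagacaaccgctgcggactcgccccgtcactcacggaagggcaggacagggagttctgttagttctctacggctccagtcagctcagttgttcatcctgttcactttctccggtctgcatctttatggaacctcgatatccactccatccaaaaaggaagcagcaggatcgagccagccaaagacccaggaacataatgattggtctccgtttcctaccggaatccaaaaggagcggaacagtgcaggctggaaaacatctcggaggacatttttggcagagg
Mrpl46: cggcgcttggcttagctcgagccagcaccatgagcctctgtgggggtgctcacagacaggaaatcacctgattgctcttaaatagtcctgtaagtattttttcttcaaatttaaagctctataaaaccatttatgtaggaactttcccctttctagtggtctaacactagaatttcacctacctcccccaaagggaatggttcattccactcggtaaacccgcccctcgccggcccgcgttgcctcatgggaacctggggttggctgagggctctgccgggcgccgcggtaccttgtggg
Mrps11: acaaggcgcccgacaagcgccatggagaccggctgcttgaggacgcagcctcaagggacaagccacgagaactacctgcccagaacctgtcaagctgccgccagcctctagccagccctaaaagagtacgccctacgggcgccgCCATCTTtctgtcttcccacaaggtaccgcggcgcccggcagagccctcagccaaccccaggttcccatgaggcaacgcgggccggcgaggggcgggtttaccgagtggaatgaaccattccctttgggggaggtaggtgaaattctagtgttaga
Mrpl49: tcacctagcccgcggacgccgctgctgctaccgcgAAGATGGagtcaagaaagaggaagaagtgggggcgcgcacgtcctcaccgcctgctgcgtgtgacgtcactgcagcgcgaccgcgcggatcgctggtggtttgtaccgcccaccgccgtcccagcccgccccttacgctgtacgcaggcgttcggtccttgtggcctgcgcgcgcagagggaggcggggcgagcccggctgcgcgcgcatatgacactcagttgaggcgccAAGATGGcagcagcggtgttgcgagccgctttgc
Mrps21: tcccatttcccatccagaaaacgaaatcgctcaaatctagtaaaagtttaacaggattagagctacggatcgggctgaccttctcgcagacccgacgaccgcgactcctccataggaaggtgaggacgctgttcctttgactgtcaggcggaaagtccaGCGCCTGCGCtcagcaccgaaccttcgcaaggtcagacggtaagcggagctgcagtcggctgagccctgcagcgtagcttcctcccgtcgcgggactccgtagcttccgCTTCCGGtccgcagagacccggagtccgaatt
Mrps21 held an NRF1 and an ETS match, Mrpl49 held 2 YY1 matches, and Mrps11 held 1 YY1 match outside the stretch it shares with Mrpl46. The windows of Mrps6, Mrps31 and Mrpl46 held none of these letters, which says nothing about binding of the factors.

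In the mutant, most of the 76 genes lay slightly below their wild-type level, and none was called different by the authors. The change is log2(FPKM + 1) of the mutant less that of wild type. It was below 0 for 70 genes and above 0 for 6. Over the 10766 genes of the table with a mean of at least 1 FPKM, 50.4% lay below 0 and 49.6% above. The median change of the 76 genes was -0.125, against -0.0012 over all 10766. The middle 50% of the members spanned -0.179 to -0.076, while that of all genes spanned -0.103 to 0.0997. As a plain FPKM ratio, the median member stood at 91.7% of its wild-type level. The summed level of the 76 genes was 6771 FPKM in wild-type cells and 6182 FPKM in mutant cells, or 0.8396% and 0.7638% of all summed FPKM.

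The individual differences were small. Of the 76 genes, 0 were called in the authors' deposited table, against 0.718% of 11276 genes whose q-value was under 1. The smallest q-value of a member was 0.403, that of Mrps35, and 37 members shared the largest, 0.998. The table gives no unadjusted p-values and does not name the test, so a count at an unadjusted threshold cannot be given. Of the 76, 8 were at least 1.2-fold lower in the mutant by the plain FPKM ratio, which is 10.5% against 8.43% of all genes kept. None was at least 1.2-fold higher, against 9.74% of all genes kept. The share of members beyond 1.2-fold lower was thus close to that of all genes. The count of 8 was 3 with quantile normalization, 4 with the trend on level removed and 5 with the trend on coding length removed, and 1 member was at least 1.2-fold higher in the first 2 of these settings. Just inside this fold lay Mrpl14, at 1.202-fold, and just outside it Mrpl37, at 1.199-fold.

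**Figure D1:**
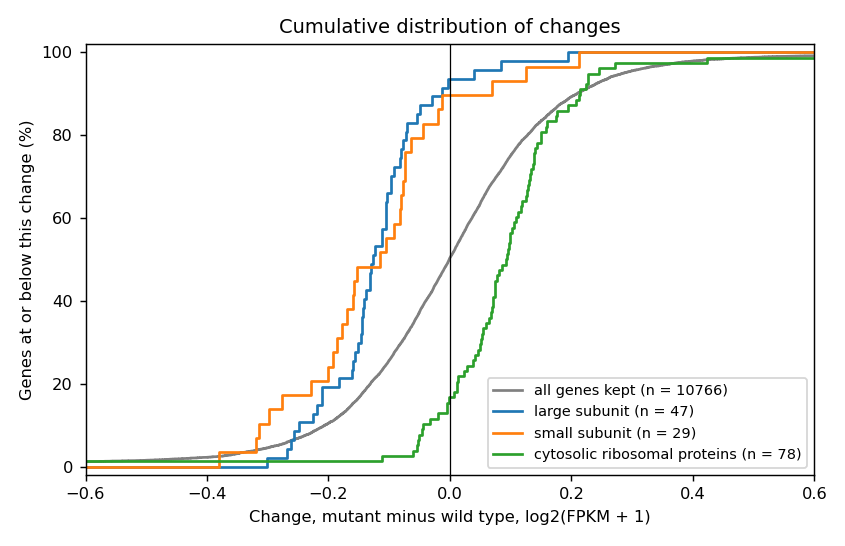
Cumulative share of genes (vertical axis, percent) at or below each change in log2(FPKM + 1), mutant minus wild type (horizontal axis), for large subunit genes, small subunit genes, cytosolic ribosomal protein genes and all genes kept. The curves of both mitochondrial subunits lie left of the curve of all genes over most of their range, with medians of -0.126 and -0.115, and the curve of the 78 cytosolic ribosomal protein genes lies right of it over most of its range, with a median of 0.09.

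The level of a gene moved with its change over the whole table, and the members are well expressed. Their median level in wild type was 68.6 FPKM, against 11.0 FPKM for all genes kept. Of the 895 genes between 50 and 100 FPKM that encode neither kind of ribosomal protein, 65.0% lay below 0, with a median of -0.05. In the same range 35 of 39 members lay below 0, with a median of -0.11. Between 20 and 50 FPKM, 56.1% of the 1848 other genes and 13 of 14 members were below 0. Between 100 and 200 FPKM these were 74.2% of 466 other genes and 9 of 10 members. With the running median of all genes at the same level subtracted, a step added after the values were seen, the median of the members was -0.063, with 65 of 76 below 0. Quantile normalization gave -0.063 as well, with 64 of 76 below 0. Under both settings the median of the members was nearer to 0 and still below it, and no test can be made with 1 value per genotype.

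**Figure D2:**
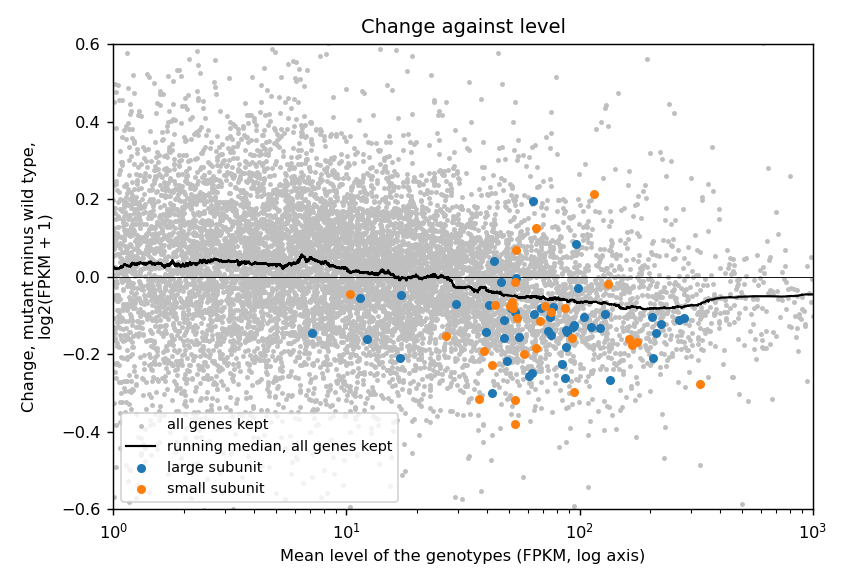
Change in log2(FPKM + 1), mutant minus wild type (vertical axis), against the mean level of the genotypes in FPKM (horizontal log axis), for large and small subunit genes and all genes kept, with the running median of all genes as a line. The line is below 0 at the levels of most members, and 65 of the 76 members lie below the line.

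The 47 genes of the large subunit had a median change of -0.126, with 44 below 0, and their summed level was 4278 FPKM in wild-type cells and 3918 FPKM in mutant cells. The mutant sum was 91.6% of the wild-type sum. Levels in wild type ran from 7.51 FPKM for Mrpl41 to 292 FPKM for Mrpl33, and the order of the genes was nearly the same in the mutant. Over all 76 genes, the rank correlation of the levels of the genotypes was 0.987, as a description across genes.

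The stalk, which recruits translation factors to the ribosome, is represented by 4 genes with a median change of -0.09. Mrpl12, whose protein forms the flexible stalk itself, was at 278 FPKM in wild-type cells and 257 FPKM in mutant cells. Mrpl10, which anchors Mrpl12 to the ribosome, was at 58.2 and 52.1 FPKM. Mrpl11, at the base of the stalk, was at 30.2 and 28.7 FPKM. Mrpl53 was the stalk gene above 0, with 93.3 FPKM in wild-type cells and 99.0 FPKM in mutant cells. The levels of these genes differ far more from each other than between the genotypes. Mrpl1, which encodes the protein of the mobile stalk on the opposite side near the exit site of transfer RNA, was at 18.2 and 15.6 FPKM.

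All 6 genes listed here for the central protuberance lay below 0, with a median change of -0.182. It is the crown of the large subunit that faces the small subunit's head, and the list may not hold all its proteins. Mrpl46 had the lowest change of the large subunit, with 46.5 FPKM in wild-type cells and 37.6 FPKM in mutant cells, or 80.8% of wild type. Mrpl52 followed with 148 and 122.5 FPKM, and Mrpl48 with 52.7 and 45.2 FPKM. The other members were closer to their wild-type level. Mrpl18 was at 223 and 202 FPKM, Mrpl40 at 92.7 and 83.7 FPKM, and Mrpl38 at 77.6 and 72.1 FPKM. Mrpl46 and Mrpl52 had q-values of 0.682 and 0.835 in the authors' deposited table.

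Proteins around the exit of the polypeptide tunnel, where the new chain meets the inner membrane, were encoded by 8 genes, all below 0, with a median change of -0.126. Mrpl45, which tethers the ribosome to the membrane, was at 54.7 FPKM in wild-type cells and 51.2 FPKM in mutant cells. Mrpl44, which carries a domain related to ribonuclease III, was at 50.2 and 44.9 FPKM. Mrpl47 had the lowest change of the group, with 68.1 and 57.2 FPKM. These 3 genes span most of the range of the group. Mrpl22 was at 93.5 and 82.3 FPKM, Mrpl23 at 91.3 and 82.8 FPKM, and Mrpl39 at 49.4 and 45.6 FPKM. Mrpl24 and Mrpl17 were nearest to their wild-type level, with 99.4 and 97.4 FPKM and with 17.4 and 16.8 FPKM.

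Other large subunit genes of bacterial type ranged more widely, from -0.262 for Mrpl14 to 0.04 for Mrpl9. Mrpl2, Mrpl3 and Mrpl4 encode proteins of the conserved core near the catalytic centre. Mrpl2 was at 128 FPKM in wild-type cells and 117 FPKM in mutant cells, and Mrpl4 at 97.9 and 89.4 FPKM. Mrpl3 was almost level, with 46.5 and 46.0 FPKM. Mrpl16, which also lies near the catalytic centre, was at 52.4 and 49.5 FPKM, and Mrpl27, which reaches towards it, at 91.0 and 77.7 FPKM. Mrpl14, on the face that meets the small subunit, was at 94.6 and 78.7 FPKM, the lowest change of the bacterial-type group. Mrpl19, on the same face, was at 11.6 and 11.2 FPKM. Mrpl32, whose precursor is cut by the inner membrane protease built from Afg3l2 and Spg7, was at 53.4 and 53.3 FPKM. Its change was the nearest to 0 of all 76 genes.

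Other abundant transcripts of this type stood closely together in their ratio to wild type. Mrpl33 was at 292 FPKM in wild-type cells and 271 FPKM in mutant cells, Mrpl20 at 233 and 214 FPKM, and Mrpl34 at 212 and 197 FPKM. Mrpl30 was at 134 and 125 FPKM, Mrpl28 at 117 and 107 FPKM, and Mrpl13 at 108.0 and 100.4 FPKM. Each of these was between 91.3% and 93.4% of its wild-type level. Mrpl36 was at 79.2 and 74.97 FPKM, Mrpl21 at 76.9 and 69.6 FPKM, and Mrpl15 at 65.9 and 61.5 FPKM. Mrpl55 was at 41.7 and 37.7 FPKM, and Mrpl35 at 12.96 and 11.5 FPKM. Mrpl9 was the only one of the 30 large subunit genes of bacterial type above 0, with 42.4 and 43.6 FPKM.

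Among the large subunit proteins specific to mitochondria, Mrpl49 stood highest, with 58.6 FPKM in wild-type cells and 67.2 FPKM in mutant cells, or 114.7% of wild type. The q-value of Mrpl49 in the authors' deposited table was 0.941. Mrpl37 was at 66.5 and 55.5 FPKM, and Mrpl42 at 221 and 191 FPKM. These genes thus lay on either side of the group's median of -0.126. Mrpl54 was at 99.0 and 90.6 FPKM, Mrpl51 at 79.4 and 71.3 FPKM, and Mrpl43 at 70.2 and 66.2 FPKM. Mrpl50 was at 42.1 and 40.01 FPKM. Mrpl41, the least abundant member, was at 7.51 and 6.69 FPKM.

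**Figure D3:**
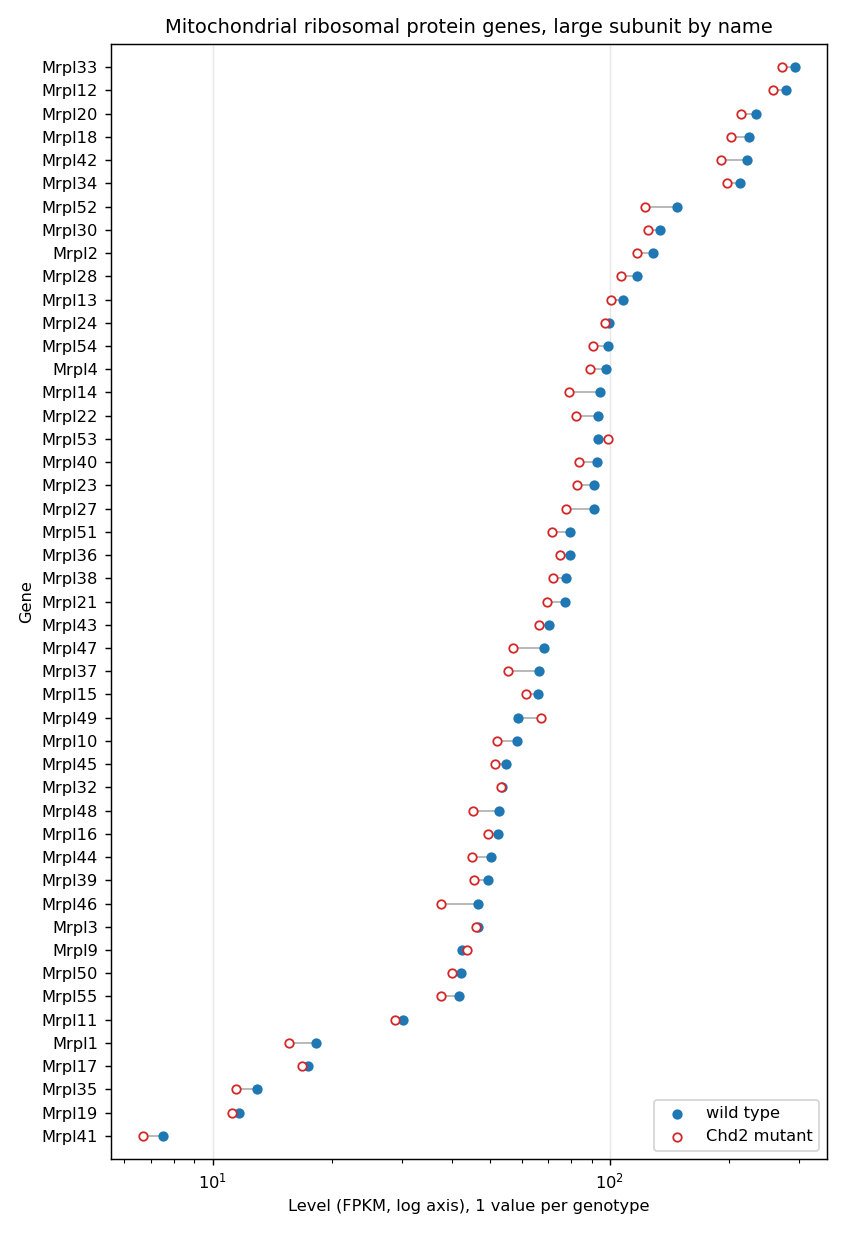
Level in FPKM (horizontal log axis) of each of the 47 large subunit genes (vertical axis, ordered by wild-type level), with filled points for wild type and open points for the Chd2 mutant, 1 value per genotype. The open point lies left of the filled point in 44 genes and right of it in Mrpl9, Mrpl49 and Mrpl53.

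The 29 genes named for the small subunit had a median change of -0.115, with 26 below 0. Their summed level was 2493 FPKM in wild-type cells and 2264 FPKM in mutant cells, or 90.8% of wild type. The changes were more spread than in the large subunit, with a standard deviation over genes of 0.132 against 0.091. Both the lowest and the highest change of all 76 genes belonged to this subunit, Mrps35 and Mrps34.

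The head of the small subunit, which swivels as transfer RNAs move through, is built in part from 8 of these proteins, and all 8 lay below 0 with a median change of -0.134. Mrps35 was at 59.7 FPKM in wild-type cells and 45.6 FPKM in mutant cells, or 76.4% of wild type, the lowest of the 76. Mrps31 was at 41.0 and 32.8 FPKM, or 79.9% of wild type. The q-values of Mrps35 and Mrps31 in the authors' deposited table were 0.403 and 0.567. Both encode proteins specific to mitochondria. The other head genes were nearer to wild type, with Mrps24 at 61.8 and 53.7 FPKM, Mrps14 at 28.1 and 25.1 FPKM, and Mrps7, whose protein binds ribosomal RNA, at 70.6 and 65.1 FPKM. Mrps9 was at 55.8 and 51.8 FPKM, Mrps33 at 77.9 and 73.0 FPKM, and Mrps10 at 51.8 and 49.0 FPKM.

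Outside the head, Mrps12, whose protein lies at the decoding centre, was at 172 FPKM in wild-type cells and 154 FPKM in mutant cells. Mrps6 was at 59.0 and 47.1 FPKM, Mrps15 at 104.4 and 84.7 FPKM, and Mrps21, the most abundant member of all, at 359 and 297 FPKM. With Mrps35 and Mrps31, these last 3 were the small subunit genes at least 1.2-fold lower in the mutant. Mrps11 was at 45.7 and 38.9 FPKM, Mrps16 at 179 and 158 FPKM, and Mrps5 at 98.0 and 87.7 FPKM. Mrps28 was at 89.3 and 84.4 FPKM. Mrps17 and Mrps2 were the bacterial-type genes above 0, with 52.2 and 54.8 FPKM and with 62.0 and 67.7 FPKM.

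Among the small subunit proteins specific to mitochondria, Mrps34 had the highest change of the 76 genes. It was at 107 FPKM in wild-type cells and 124 FPKM in mutant cells, or 116.0% of wild type, with a q-value of 0.888 in the authors' deposited table. Mrps27, which carries the helical repeats of RNA-binding proteins, was at 41.4 and 36.1 FPKM, and Mrps26 at 69.1 and 60.6 FPKM. Mrps34 and Mrps27 thus lay on opposite sides of 0, neither of them called. Mrps22 was at 44.7 and 42.4 FPKM, Mrps23 at 53.3 and 52.8 FPKM, and Mrps25 at 10.5 and 10.2 FPKM.

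The 3 paralogs of bacterial protein S18 occupy different places in the ribosome. Mrps18c was at 187 FPKM in wild-type cells and 166 FPKM in mutant cells, and Mrps18b at 133 and 132 FPKM. Mrps18a, at 72.9 and 69.2 FPKM, is named for the small subunit, but its protein sits in the large subunit. The same holds for Mrps30, at 52.5 and 50.2 FPKM. Mrps36, at 53.4 and 50.4 FPKM, is now known as a component of the 2-oxoglutarate dehydrogenase complex and not of the ribosome. All 5 of these lay below 0.

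**Figure D4:**
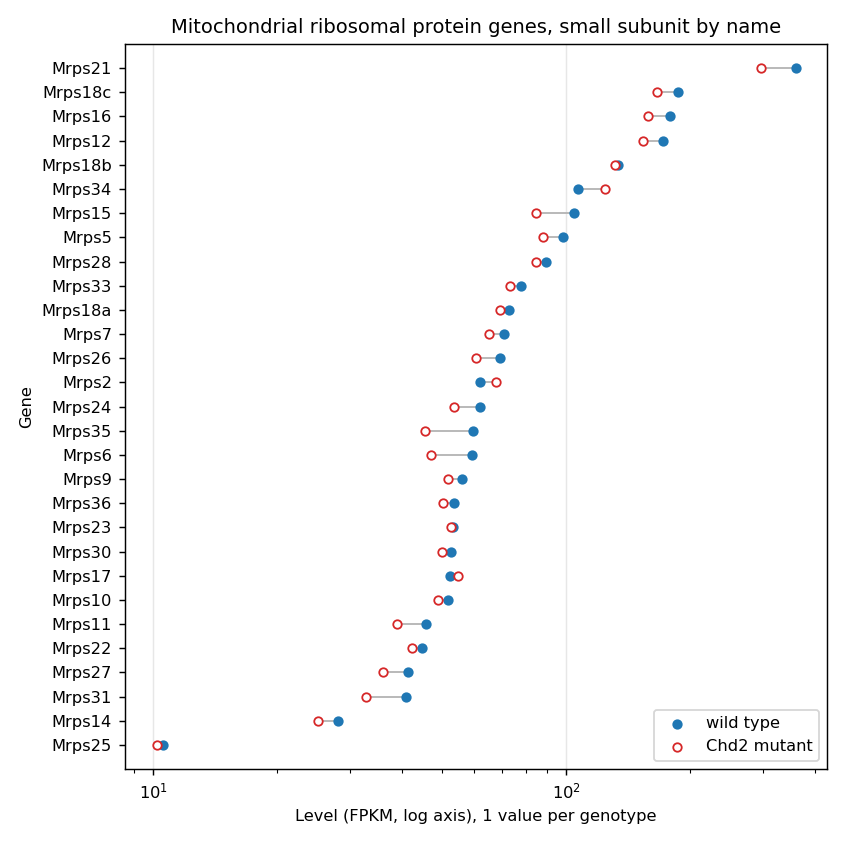
Level in FPKM (horizontal log axis) of each of the 29 genes named for the small subunit (vertical axis, ordered by wild-type level), with filled points for wild type and open points for the Chd2 mutant, 1 value per genotype. The open point lies left of the filled point in 26 genes and right of it in Mrps2, Mrps17 and Mrps34.

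Large and small subunit genes were close to each other in their change. By name, the median of the large subunit minus that of the small subunit was -0.0111, and the difference of the means had the other sign, 0.0055. With Mrps18a and Mrps30 counted in the large subunit and Mrps36 left out, the medians were -0.123 for 49 genes and -0.156 for 26 genes, and their difference was 0.0329. The sign also turned with quantile normalization, to 0.0031, and with the 7 ribosomal proteins of other names added, to 0.0216. The spread of changes within each subunit was larger than either difference, and no test can be made with 1 value per genotype. The summed levels of the subunits by name, large over small, had a ratio of 1.72 with wild type and 1.73 with mutation.

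The medians of bacterial-type and mitochondria-specific proteins had opposite orders in the subunits, taken by the place of the protein, with wide overlap. Mrps18a and Mrps18b were counted as mitochondria-specific, although they are paralogs of bacterial S18. In the small subunit the 16 bacterial-type genes had a median change of -0.159 and the 10 mitochondria-specific genes -0.083. In the large subunit these were -0.117 for 30 genes and -0.126 for 19 genes. In both subunits together, the 46 bacterial-type genes had a median change of -0.131, with 43 below 0. The 29 mitochondria-specific genes had a median of -0.112, with 26 below 0. Of the 13 members whose human forms are known for combined oxidative phosphorylation deficiency, among them Mrpl3, Mrpl44, Mrps22 and Mrps34, 11 lay below 0, with a median of -0.074. None of the 13 was at least 1.2-fold lower, against 8 of the 76 members and 8.43% of all genes kept. With so few genes this count says nothing particular about the 13.

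A further 7 proteins of the ribosome carry other names and fall outside the rule, and 6 of them lay below 0, with a median of -0.146. Gadd45gip1, of the large subunit, was at 36.2 FPKM in wild-type cells and 29.7 FPKM in mutant cells. Dap3, a GTP-binding protein of the small subunit's head, was at 24.1 and 20.1 FPKM. Ptcd3, a repeat protein of the small subunit, was at 76.6 and 67.0 FPKM, and Aurkaip1 at 137 and 124 FPKM. Ict1, a peptide-release enzyme built into the large subunit, was at 76.6 and 70.7 FPKM, Chchd1 at 164 and 161 FPKM, and Mrp63 at 6.58 and 6.59 FPKM. None was called, and their changes lay within the range of the members.

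Genes that assist the mitochondrial ribosome were less abundant at the median, and those for its assembly were more mixed in direction. Of 25 genes for its assembly, 16 lay below 0 and none was called, with a median change of -0.02. Mrm1, which methylates the large ribosomal RNA, was at 7.90 FPKM in wild-type cells and 9.51 FPKM in mutant cells. Noa1, a GTPase of assembly, was at 25.8 and 21.9 FPKM. Trmt2b was at 2.097 and 2.602 FPKM, and Malsu1, which binds the large subunit, at 39.7 and 34.1 FPKM. Of 16 genes for translation factors and for handling of messenger RNA, 13 lay below 0, with a median of -0.08 and no call. The elongation factor Tufm was at 168 and 153 FPKM, its exchange factor Tsfm at 63.6 and 55.2 FPKM, and the recycling factor Mrrf at 15.7 and 12.5 FPKM. The initiation factor Mtif2 lay on the other side of 0, with 13.7 and 15.8 FPKM. The median level in wild type was 16.9 FPKM for assembly and 15.0 FPKM for translation factors, against 68.6 FPKM for the members. Of the 3681 genes between 5 and 20 FPKM that encode neither kind of ribosomal protein, 44.7% lay below 0, with a median of 0.018. The part of level in the difference between these lists and the members was not tested.

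Genes upstream of the ribosome showed no common direction. Median levels in wild type were 19.0 FPKM for mitochondrial DNA genes and 22.3 FPKM for regulators, also below that of the members. Of 14 genes for transcription and upkeep of mitochondrial DNA, 9 lay below 0, with a median change of -0.0063 and no call. Top1mt, the mitochondrial topoisomerase, was at 3.83 FPKM in wild-type cells and 2.53 FPKM in mutant cells, while Tfam, which packages mitochondrial DNA, was at 35.4 and 35.9 FPKM. Of 13 regulators of nuclear genes for mitochondria, 6 lay below 0 and none was called, with a median of 0.0071. Nrf1, Gabpa and Yy1, whose letters are marked in the promoters shown, were close to level. Nrf1 was at 22.3 and 21.9 FPKM, Gabpa at 23.7 and 23.7 FPKM, and Yy1 at 41.7 and 39.5 FPKM. Sp1 and Max were less level, with Sp1 at 15.9 and 17.6 FPKM and Max at 49.7 and 44.8 FPKM. The largest differences were those of Creb1 at 3.20 and 4.12 FPKM, Mycn at 41.9 and 50.2 FPKM, Esrra at 8.39 and 9.82 FPKM and Myc at 57.9 and 51.5 FPKM. Ppargc1a, a coactivator of mitochondrial biogenesis, was listed at 0 in both genotypes.

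**Figure D5:**
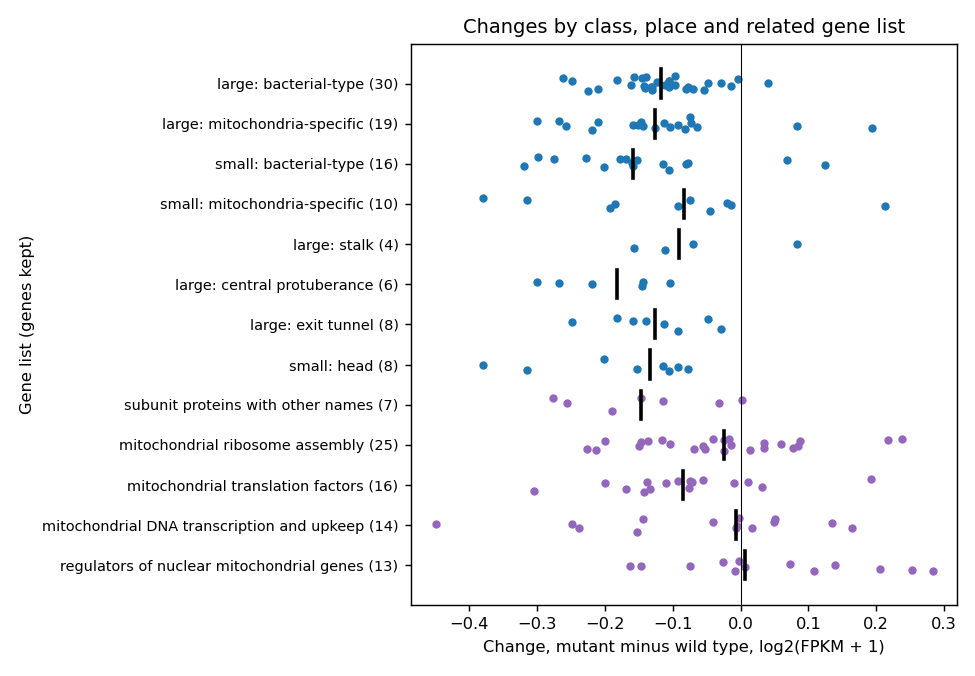
Change in log2(FPKM + 1), mutant minus wild type (horizontal axis), of each gene in classes and places of the mitochondrial ribosome and in 5 related lists (vertical axis, genes kept in brackets), with a bar at the median. The medians of the 8 ribosomal groups lie between -0.182 and -0.083, and those for assembly, mitochondrial DNA and nuclear regulators between -0.02 and 0.0071. Translation factors, at -0.084, and ribosomal proteins with other names, at -0.146, lie within the range of the ribosomal groups.

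The cytosolic ribosome lay on the other side of 0. By symbol, 78 genes of cytosolic ribosomal proteins were kept, of which 65 lay above 0, with a median change of 0.09. Their share of all summed FPKM was 31.5% with wild type and 33.5% with mutation. The nuclear genes of oxidative phosphorylation, whose partners the mitochondrial ribosome makes, had 56 of 74 below 0 and a median of -0.08. Their median level in wild type was 262 FPKM, and of the 456 genes of 200 FPKM or more that encode neither kind of ribosomal protein 76.5% lay below 0, with a median of -0.073. Each of these lists held 1 call in the authors' deposited table, Rpl39l at 33.0 and 14.9 FPKM and Atp5c1 at 327 and 162 FPKM. These lists share the same pooled values with the members, and no test of the difference between lists was possible.

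Members are short genes, and coding length also moved with the change over the table. Their median coding length was 582 bases, against 1350 bases for all genes kept with a length. Of the 1038 genes with a coding length from 300 to under 600 bases that encode neither kind of ribosomal protein, 56.4% lay below 0, with a median of -0.03. In this range 33 of 36 members lay below 0, with a median of -0.125, and 5 of 45 cytosolic ribosomal protein genes, with a median of 0.09. With the running median over genes of like length removed, the median of the members was -0.102. Among the members themselves the change had a rank correlation of -0.0064 with coding length and of -0.081 with level, over 76 genes and as a description.

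Promoter letters were compared with the change as a description. Windows on chr18 were left out of the search. Of the 67 members with a window, 24 held the ETS letters, or 35.8%. They stood in 22.2% of the 7985 kept genes searched and in 9.93% of all 27025 genes searched. NRF1 letters stood in 12 members, or 17.9%, against 12.5% of kept genes and 5.19% of all. YY1 letters stood in 13 members, or 19.4%, against 8.98% of kept genes and 7.28% of all. At least 1 of the 3 was found in 61.2% of members and 37.8% of kept genes. The letters GGGCGG of the SP and KLF families stood in 49.3% of members, against 71.5% of kept genes and 38.2% of all. Both strands were searched, and matches of different motifs overlapped in 2 of 73 windows. Members with ETS letters had a median change of -0.143 and those without -0.131. For YY1 letters these medians were -0.162 and -0.127, and for NRF1 letters -0.109 and -0.141. For the SP and KLF letters they were -0.152 and -0.105, and for the NF-Y letters CCAAT -0.106 and -0.148. The TATA letters TATAAA stood in 5 members, with a median of -0.201 against -0.131 without, and the E-box letters CACGTG in 5, with -0.132 against -0.135. The TATA, NF-Y and E-box letters were in 7.89%, 43.8% and 12.6% of kept genes. With or without each of the 7 motifs, the median was below 0.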

How the data were processed

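The members and gene lists were chosen with earlier results of these data known. The authors deposited 1 FPKM value per gene and genotype, and, per the file headers, a log2 fold change, a q-value and a call. For the members the authors' log2 fold change is the plain FPKM ratio. The reads were processed on build mm9 with TopHat2 2.1.0 and Cufflinks after bcl2fastq 2.17.1.14, per the submitters' processing notes. The sources used here give no Cufflinks version, annotation, test or use of strand.

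A mean of 1 FPKM or more was required, and changes were computed as log2(FPKM + 1), mutant minus wild type, with pandas 2.3.3 and numpy 2.4.6. Fold thresholds use the plain ratio. The planned limma fit needs a value per library and was not run. Coding length (longest coding sequence) and neighbours came from GENCODE M21 on GRCm38, matched by symbol for all 76 members; 90.8% of kept genes had a length. Trends were removed with a running median of 501 genes. Only the length trend was tried on simulated data, with shifted genes placed at random over length, unlike the short members. All members were named, by subunit and place, and of other lists genes from the 4 with the largest changes. Genes named beyond that were chosen for their role or call after their values were seen. These are Tufm, Tfam, Nrf1, Gabpa, Yy1, Sp1, Max, Ppargc1a, Rpl39l, Atp5c1 and the subunit proteins with other names past the first 4.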

Additional observations from a re-analysis of the deposited data

How the results depend on the processing

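No paired analysis was possible because the table holds 1 value per genotype and none per lot, so fits per library and leaving out replicates were not run. No member was called by the authors, at a q-value of at most 0.02 or with a minimum of 5 FPKM. Without a filter, and with a minimum of 5 FPKM, the medians and fold counts of the members were the same, since all members pass both, while the median over all genes was 0 and -0.0131. The medians of all members, of the large and of the small subunit were -0.126, -0.127 and -0.117 with a pseudocount of 0.1, -0.126, -0.128 and -0.117 as plain ratios, and -0.123, -0.125 and -0.114 with the median of kept genes set to 0. With quantile normalization they were -0.0626, -0.0621 and -0.0652, with a subunit difference of 0.0031, and 1 member was at least 1.2-fold higher and 3 lower. With the trend on coding length removed they were -0.102, -0.104 and -0.0896, with a difference of -0.0146 and 5 members at least 1.2-fold lower. With the trend on level removed, a setting chosen after seeing the data, they were -0.0629, -0.0636 and -0.0606, with a difference of -0.00299, and 1 member was at least 1.2-fold higher and 4 lower. By the place of the protein they were -0.126, -0.123 and -0.156, with a difference of 0.0329. With the 7 proteins of other names added they were -0.126, -0.125 and -0.146, with a difference of 0.0216. The cause of the shifts under quantile normalization was not tested. The sign turned for Mrpl3, Mrpl24, Mrpl32, Mrps18b and Mrps23 in the quantile, length and level settings, and for Mrps28 in the quantile setting.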

Other observations

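Some members start close to another gene on the opposite strand, and the share of all genes that do so was not determined. In the GENCODE annotation of GRCm38, 29 of the 76 had a protein-coding start within 1000 bases of the start of such a gene that is listed in the table, and in 28 of these pairs the partner had a mean of at least 1 FPKM. Of the 28 partners 16 lay below 0, with a median change of -0.046, while 26 of the 28 members did, with a median of -0.146. Over all genes kept, 50.4% lay below 0. Partner levels in wild type ran from 0.954 FPKM for Zfp661 to 2401 FPKM for Fau. The part of level in the difference between partners and members was not tested. Mrpl46 and Mrps11 are partners of each other, so this pair is counted once from each gene, and both genes count as member and as partner. Their starts are 30 bases apart, and they had changes of -0.300 and -0.229. Mrpl36 is paired with Ndufs6, a subunit of respiratory complex I, at 498 FPKM in wild-type cells and 416 FPKM in mutant cells. Mrps12 is paired with Sars2, the mitochondrial seryl-tRNA synthetase, at 25.5 and 22.5 FPKM. Mrpl18 is paired with Tcp1, a chaperonin subunit, at 314 and 315 FPKM. The partner lay above 0 in 12 of the 28 pairs, and in most of these the member lay below 0. The exceptions were the members with the highest changes in each subunit, Mrpl49 and Mrps34. Mrpl49 starts 59 bases from Fau, which encodes a cytosolic ribosomal protein, at 2401 and 2596 FPKM, and Mrps34 starts 29 bases from Eme2, at 3.80 and 4.86 FPKM. None of the 28 partners was called in the authors' deposited table. The pairs named were chosen after their values were seen.

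The exons of 16 members share bases with another gene of the table in that annotation, 15 of them with a gene on the opposite strand. Reads from such stretches cannot be told apart where strand is not used in counting. The share of all genes that overlap in this way was not determined. The overlap was longest for Mrps25, which shares 3533 bases with Nr2c2, and for Mrpl19, which shares 1962 bases with Gcfc2. Mrps6 shares 159 bases with Slc5a3 on the same strand, and the part of this overlap in the change of Mrps6 was not tested. Of the 60 members without shared bases, 56 lay below 0, and their median change was -0.125.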
